A study of Mus musculus with 5 samples.

Results

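Igf2bp1, Igf2bp2, Igf2bp3, Hmga1 and Hmga2 are genes that are active in the embryo, are mostly low in adult tissues and return in many tumours, for which they are called oncofetal. They were taken by symbol from a table of normalized counts, and all 5 were found among the 12615 genes listed. All 5 also averaged 10 or more normalized counts over the 5 samples, as did 11990 genes in all, which were the genes tested. Igf2bp3 averaged 9.33 in knockdown and 21.02 in empty vector samples, so it passed this filter only through the empty vector group. The RNA came from C2C12, a long-established mouse myoblast line, so every sample has the same genetic source. There were 2 samples labelled miR-16 knockdown, transfected with 1 µg of plasmid DNA that the protocol describes as being for miR-16-1, and 3 empty vector samples, transfected with the control plasmid pCMVmiR. Both groups were taken at 5 hours and had the same culture medium. The labels call the first group a knockdown while the protocol speaks of a plasmid for the miRNA, and mature miRNAs are not analysed here, so which way miR-16 was moved is taken from the label. Nothing in the labels says that samples of a group were separate cultures, so the p-values measure a spread between samples that may be technical.

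The 3 IGF2BP proteins bind messenger RNAs through KH and RRM domains, protect client transcripts such as those of Igf2 and Myc from decay, and also bind RNA that carries the methylated base m6A. The HMGA proteins are small chromatin proteins that bend AT-rich DNA with their AT hooks. Most of these genes are known targets of let-7, which Lin28 holds down in early development, and in mouse myoblasts Hmga2 is known to act upstream of Igf2bp2 in proliferation. miR-16 itself is a seed family member of miR-15 and is known for restraining cell cycle and growth factor genes.

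The mature sequences of miR-16-5p, of its relatives miR-15a-5p and miR-497a-5p and of let-7a-5p show the seeds by which the 3' UTRs below were searched. The sequences are from RefSeq (GRCm38.p6), and capitals mark bases 2 to 8, the seed, which is the same in the miR-16, miR-15a and miR-497a sequences.
miR-16-5p: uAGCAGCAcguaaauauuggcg
miR-15a-5p: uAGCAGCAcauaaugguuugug
miR-497a-5p: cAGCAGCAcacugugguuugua
let-7a-5p: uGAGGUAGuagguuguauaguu

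A miR-16 site was TGCTGCT (7mer-m8), TGCTGCTA (8mer) or GCTGCTA (7mer-A1), and a let-7 site was CTACCTC (7mer-m8), CTACCTCA (8mer) or TACCTCA (7mer-A1). Both were read on the sense strand of the longest annotated 3' UTR of each gene (GENCODE M21, GRCm38). Of the 5 genes, 4 held a miR-16 site, and Igf2bp2 held none in its 1784 nt. Over 11993 genes with a 3' UTR, 28.9% held a miR-16 site and 4.68% an 8mer. The miR-16 sites are shown with their flanks, and capitals mark the site. In the 8mer and the 7mer-A1, the final A lies opposite base 1 of the miRNA, outside the seed.
Igf2bp1: cattggggggcTGCTGCTtgtgactgtta
Igf2bp3: cctcaaggccaTGCTGCTttctgagttgt
Hmga1: cccactattgcTGCTGCTAccagcgtcaga
Hmga2: acttgttacacGCTGCTAgacacaagccc

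The Igf2bp1 site, a 7mer-m8, starts 6054 nt after the stop codon in a 3' UTR of 6337 nt (chr11:95957429-95957457, minus strand). Long 3' UTRs hold a site often: 70.3% of the 377 genes with a 3' UTR within 20% of that length had one. The Igf2bp3 site, also a 7mer-m8, starts at 1473 of 2119 nt (chr6:49085852-49085880, minus strand), where 37.2% of 1843 genes of similar length had a site. Hmga1 has the 8mer at 866 of 1183 nt (chr17:27563346-27563375, plus strand), with a 7mer-m8 at 863 that overlaps it. Among 1724 genes with a 3' UTR of similar length, 25.2% had a site. Only 6 of the 17 annotated coding transcripts of Hmga1 contained these sites. The Hmga2 site is a 7mer-A1 at 1342 of 3014 nt (chr10:120362930-120362958, minus strand), and 49.7% of 1536 genes of similar length had one. A match of this kind is a description of the sequence, not a measured binding site.

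All 5 genes held let-7 sites, against 17.3% of all genes with a 3' UTR. Hmga2 held 7 of them, 1 being an 8mer, and Igf2bp1 held 5, of which 3 were 8mers. Igf2bp2 held 2, 1 of them an 8mer, Igf2bp3 held 1 8mer, and Hmga1 held 1 7mer-m8. The Hmga1 site was in only 6 of its 17 annotated coding transcripts, and the other coding transcript of Igf2bp2 held 1 site. The share of genes with a let-7 site among 3' UTRs of similar length was 52.0% for Igf2bp1 and 28.1% for Hmga2, and for the other 3 genes it lay between 13.5% and 24.2%. The 8mers of 4 genes are given with the site in capitals (for Igf2bp1, the first of its 3).
Igf2bp1: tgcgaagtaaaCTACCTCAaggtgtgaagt
Igf2bp2: acaaataaaagCTACCTCAggtgtttttta
Igf2bp3: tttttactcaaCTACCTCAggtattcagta
Hmga2: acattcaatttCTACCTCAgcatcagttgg

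In the same order, these 8mers lie at chr11:95961767-95961796, chr16:22059462-22059491, chr6:49086776-49086805 and chr10:120364213-120364242, all on the minus strand. The Hmga2 8mer starts 58 nt after the stop codon, and its other 6 sites are spread to 2611 nt.

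**Figure D1:**
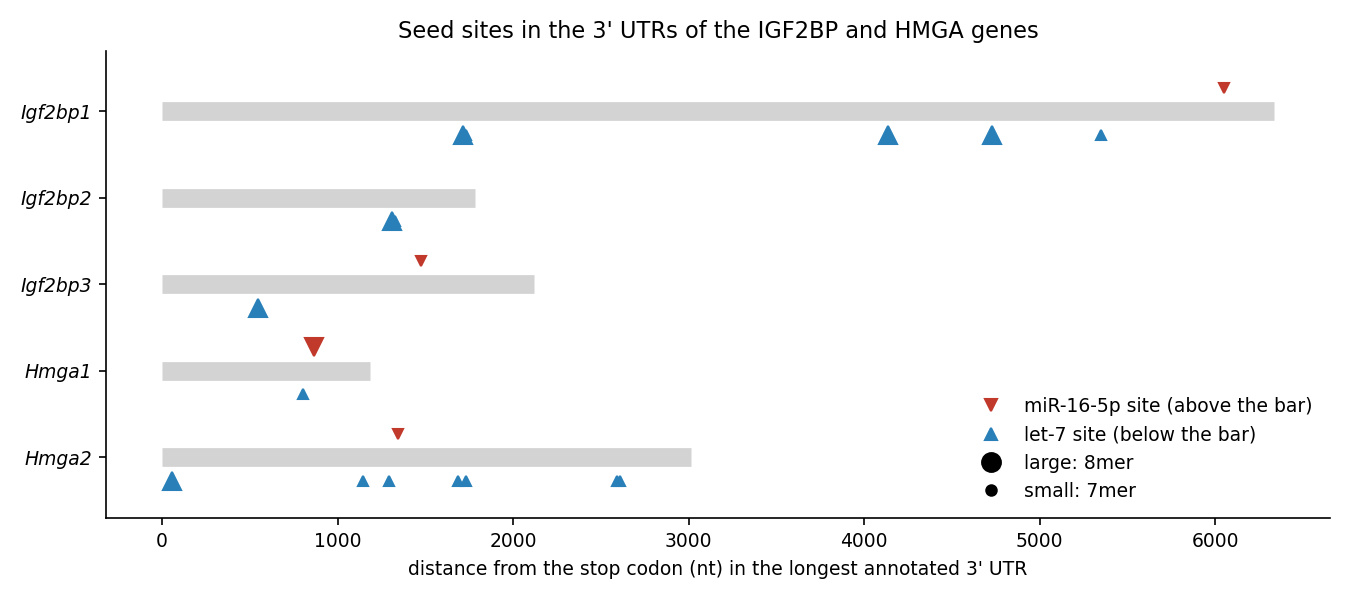
Seed matches in the longest annotated 3' UTR of each gene, as distance in nt from the stop codon, with miR-16-5p sites above and let-7 sites below the grey bar. Large marks are 8mers; Hmga2 has 7 let-7 sites and Igf2bp2 has no miR-16 site.

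The samples held an estimated 15.2 and 17 M reads in the knockdown group and 15.5, 20.1 and 15.4 M reads in the empty vector group. By the column names, both knockdown samples and empty vector sample 2 were run on the same flow cell (B), while the other 2 controls, 1 and 3, were run on flow cell A. Values within flow cell B, given beside many of the pooled ones, rest on a single control, so the flow cell and that sample cannot be told apart. The cells carried their label's markers. Myod1, the myogenic regulator, had 1555 and 1599.7 normalized counts in the knockdown samples, against 1619, 1536 and 1685 in empty vector samples. The sum of the 7 myoblast markers listed, of 8, was 9611 to 9994 in knockdown and 9570 to 10010.1 in empty vector samples. Sums were low for the only endothelial marker listed of 5 (Kdr), at 9.38 to 12.9 in knockdown and 13.9 to 22.7 in empty vector samples. They were also low for the only adipocyte marker of 4 (Fabp4) and the only epithelial marker of 4 (Krt18), at most 10.8 in any sample. Macrophage markers, 2 of 5 listed and mostly Cd14, summed to 384 to 440.03 in knockdown and 397 to 440.6 in empty vector samples. Markers of differentiated muscle fibre, 2 of 6 listed, summed to 56.3 to 70.1 in knockdown and 38.9 to 68.3 in empty vector samples.

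None of the 5 genes passed an adjusted p of 0.05 between knockdown and empty vector samples (limma across all 11990 genes, two-sided, Benjamini-Hochberg), as 0% of all genes did. At an unadjusted p under 0.05 the count was also 0 of 5, against 8.13% of all genes. The sample values of the 2 groups failed to overlap for 1 of 5, Igf2bp3, which was lower in both knockdown samples, while 23.8% of all genes had no overlap and 12.4% were lower without overlap. The log2 difference was below 0 for 4 of 5, against 49.8% of all genes, and above 0 for 1 of 5, against 50.2%. In bulk RNA, fewer cells that use a gene and less of its RNA per cell cannot be told apart.

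**Figure D2:**
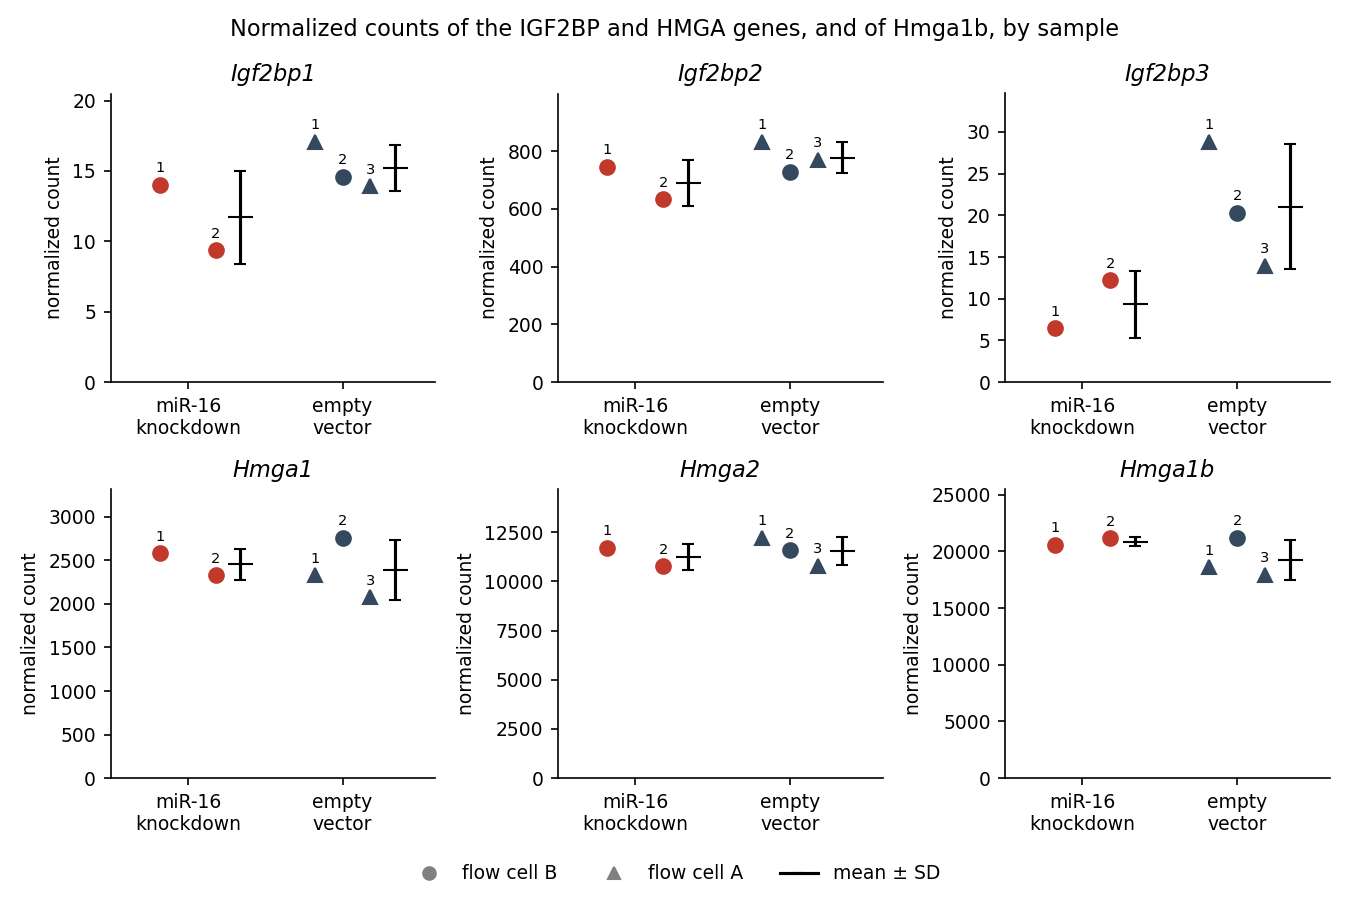
Normalized counts of the 5 genes and of Hmga1b, a near copy of Hmga1, in each sample, with replicate numbers beside the points and mean ± SD at the right of each group (n = 2 knockdown, n = 3 empty vector). Circles are flow cell B and triangles flow cell A; the groups are apart only for Igf2bp3, at 6.47 and 12.2 in knockdown and 13.9 to 28.8 in empty vector samples.

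Igf2bp3, the family member most tied to tumours and fetal tissue, had 6.47 and 12.2 normalized counts in the knockdown samples, against 28.8, 20.3 and 13.9 in the empty vector samples. Both knockdown values lay under all 3 empty vector values, with the narrowest gap between knockdown sample 2 and empty vector sample 3. Means were 9.33 ± 4.05 in knockdown (SD, n = 2) and 21.02 ± 7.48 in empty vector samples (SD, n = 3), a ratio of 0.444. Its log2 difference was −1.09 ± 0.53 (SE), with a 95% interval from −2.22 to 0.040. It did not pass in the limma test (adjusted p = 0.619). As fold, that interval runs from 0.214 to 1.03.

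Behind these values were 6 and 13 reads in knockdown samples and 27, 25 and 13 reads in empty vector samples. Knockdown sample 2 and empty vector sample 3 thus held the same number of reads, and their normalized counts differed through the samples' size factors. Pooled, the gene had 0.591 reads per M reads in knockdown samples (exact Poisson 95% interval 0.356 to 0.924) and 1.28 in empty vector samples (0.985 to 1.63). Per sample the intervals were 0.145 to 0.862 and 0.408 to 1.31 in knockdown samples. In empty vector samples they were 1.15 to 2.54, 0.806 to 1.84 and 0.450 to 1.44. Across the groups, only those of knockdown sample 1 and empty vector sample 1 lay apart. All these intervals cover counting error only, and PCR copies are not independent molecules. As Igf2bp3 passed the filter only through the empty vector group, neither they nor the limma result count as support for a difference. At this low level large differences were common: of 624 genes with a mean of 10 to 20, 9.13% had a log2 difference of 1 or more in size, with a median SE of 0.56. Without knockdown sample 1 the log2 difference was −0.68 and without empty vector sample 1 it was −0.84, and it did not pass in either. On flow cell B alone it was −1.10. Kdr, the endothelial marker, was also lower without overlap in these samples, and its part in the Igf2bp3 result was not tested.

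Igf2bp1, the founding mRNA-binding member that steadies Myc transcripts, was also at a low level. It had 14.02 and 9.38 normalized counts in the knockdown samples, against 17.1, 14.6 and 13.9 in empty vector samples. Knockdown sample 1 fell inside the range of the empty vector samples, and knockdown sample 2 was the lowest of all. Means were 11.7 ± 3.28 in knockdown and 15.2 ± 1.66 in empty vector samples. On the log2 scale the difference was −0.37 ± 0.51 (SE), with a 95% interval from −1.46 to 0.72 (limma adjusted p = 0.867). The interval, 0.363 to 1.64 as fold, shows how little these 10 to 18 reads per sample can resolve. Leaving out knockdown sample 1 gave −0.64 and leaving out knockdown sample 2 gave −0.11, and neither passed, and on flow cell B the difference was −0.32.

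Igf2bp2, the member that persists in adult tissues, muscle included, and whose client transcripts are tied to metabolism and growth, was well measured. It had 746 and 634 normalized counts in the knockdown samples, against 833, 728 and 770.3 in empty vector samples. Knockdown sample 1 lay within the empty vector range and knockdown sample 2 below it, so the groups overlapped. Means were 690.2 ± 79.1 in knockdown and 777 ± 52.9 in empty vector samples, a ratio of 0.888. The log2 difference was −0.17 ± 0.11 (SE), with an interval of 0.757 to 1.04 as fold (limma adjusted p = 0.703). On flow cell B alone it was −0.081, and leaving out knockdown samples 2 and 1 in turn gave −0.056 and −0.29. The median SE of the 2364 genes with a mean of 500 to 1000 was also 0.11, so the error of Igf2bp2 was that of genes at its level.

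Hmga2, the architectural factor with the most let-7 sites, had the highest listed level of the 5, also per kb of transcript, with near copies counted apart. It had 11717 and 10770.4 normalized counts in the knockdown samples, against 12229, 11594 and 10789.5 in empty vector samples. Knockdown sample 2 and empty vector sample 3 were nearly the same, and knockdown sample 1 stood between empty vector samples 1 and 2. Means were 11244 ± 669.6 in knockdown and 11537 ± 721 in empty vector samples. The log2 difference was −0.037 ± 0.075 (SE) with an interval of 0.872 to 1.09 as fold (limma adjusted p = 0.918), and its sign turned without empty vector sample 1 (0.006) or without knockdown sample 2 (0.024). On flow cell B it was −0.045.

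Hmga1, its paralogue with the same AT hooks, had 2583 and 2328 normalized counts in the knockdown samples, against 2330.4, 2761 and 2076 in empty vector samples. Both knockdown values lay inside the empty vector range. Means were 2456 ± 179.8 in knockdown and 2389 ± 346 in empty vector samples. That made a log2 difference of 0.048 ± 0.11 (SE), with an interval of 0.880 to 1.21 as fold (limma adjusted p = 0.924). Its direction was not stable: within flow cell B the knockdown samples were below their single control, with a difference of −0.17. Leaving out empty vector sample 3 gave −0.049, leaving out knockdown sample 1 gave −0.027, and leaving out empty vector sample 2 gave 0.16.

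The authors' deposited table of their own comparison lists 3 of the 5 genes, with inhibition over control, among 6588 rows of which 70 have an FDR under 0.05. There Igf2bp2 has a ratio of 0.888 and an FDR of 0.546, Hmga2 a ratio of 0.975 and an FDR of 0.878, and Hmga1 a ratio of 1.03 and an FDR of 0.920 in the authors' deposited table.

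Under other choices of samples and processing, the 3 Igf2bp genes stayed below 0 in each setting they entered. Hmga1 kept its direction in 10 of 16 settings and Hmga2 in 14 of 16, and none of the 5 passed in any of them (lowest limma adjusted p 0.319, for Igf2bp3). Several settings share the same log2 difference by construction, so these tallies do not count separate checks.

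**Figure D3:**
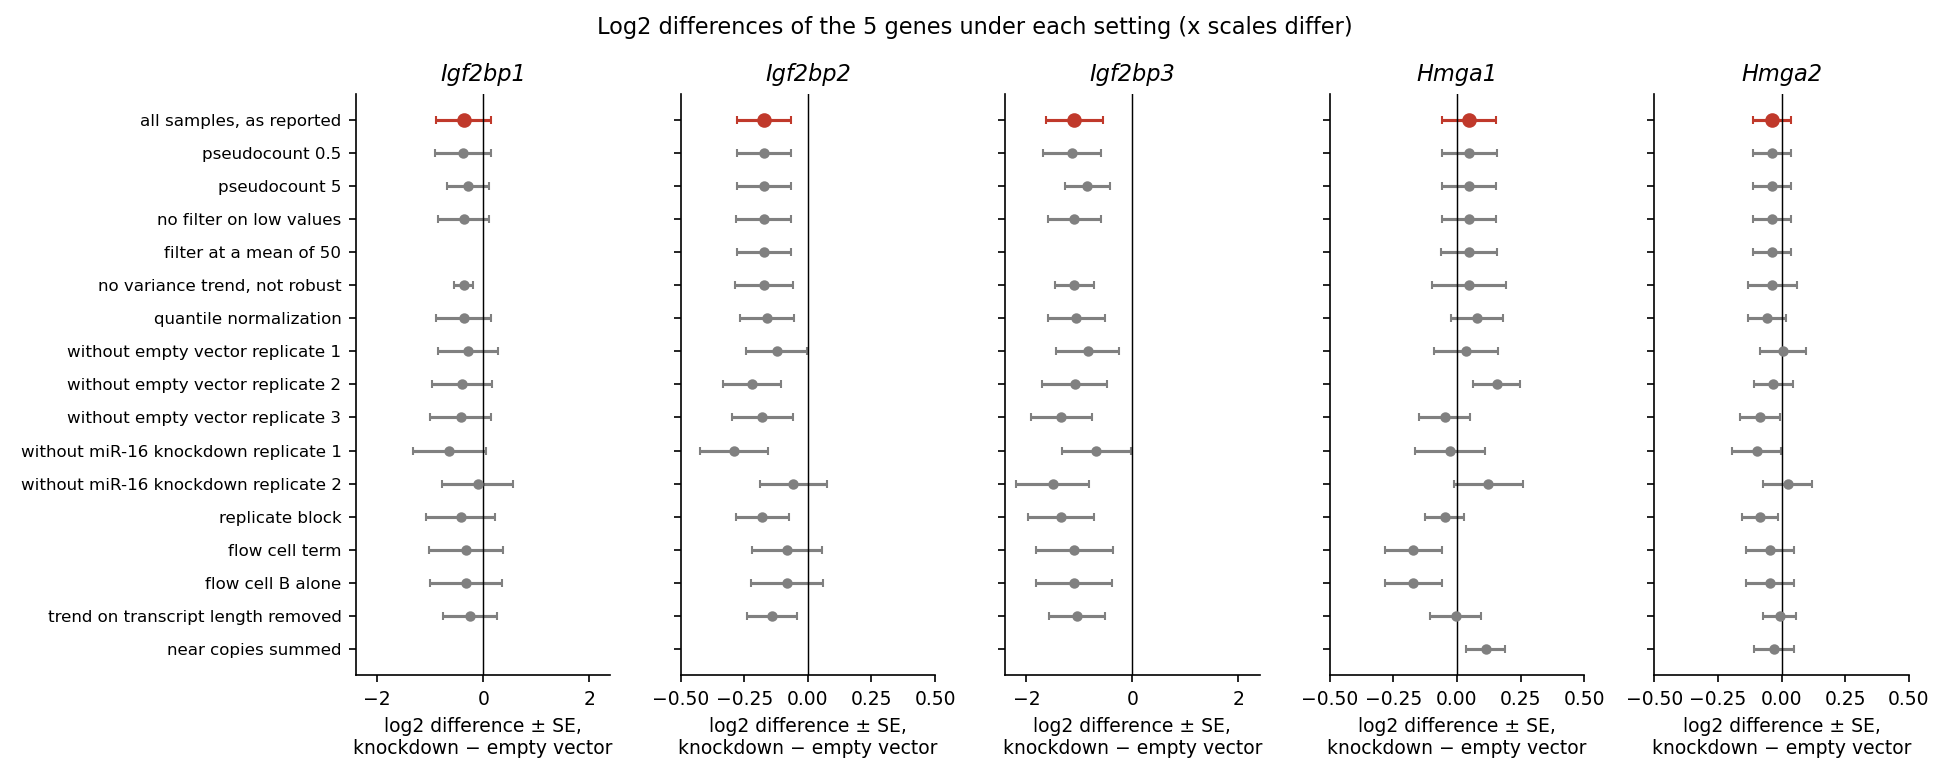
Log2 difference ± SE of each of the 5 genes with all samples (red) and under each other setting (grey), with horizontal scales that differ between genes. The 3 Igf2bp genes stay below 0 in each setting they enter, and Hmga1 and Hmga2 lie on both sides of 0.

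The HMGA values carry a further uncertainty, because both genes have near copies elsewhere in the genome. Hmga1b on chromosome 11 matches an annotated Hmga1 transcript of 1681 nt over 1602 bases with 3 substitutions and no gap, an identity of 99.8%. The substitutions are A736G, A863G and G1325T, counted from 1 at the 5′ end of the Hmga1 transcript with its base first, and all lie in the 3' UTR. The first is shown in capitals between its flanks.
Hmga1: ttagccgcagcccgAcctgctgcgcacct
Hmga1b: ttagccgcagcccgGcctgctgcgcacct

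Of all stretches of 150 nt in Hmga1b, 69.5% were found letter for letter in Hmga1, and of stretches of 50 nt, 89.0%. Hmga1b was listed far above Hmga1, with 20565 and 21149 normalized counts in the knockdown samples, against 18594, 21211 and 17924 in empty vector samples. The knockdown values lay inside the empty vector range, and the log2 difference was 0.12 ± 0.077 (SE; limma adjusted p = 0.711). Hmga1 thus took 11.2% and 9.92% of the sum of both in knockdown samples and 11.1%, 11.5% and 10.4% in empty vector samples. How many of these reads came from either gene cannot be told apart. The sum was 23148 and 23477 in knockdown samples and 20924, 23972 and 19999.5 in empty vector samples, a log2 difference of 0.11 ± 0.078 (SE; limma adjusted p = 0.732). Like Hmga1, the 3' UTR of Hmga1b held 2 miR-16 sites, 1 of them an 8mer, and 1 let-7 site.

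Hmga2-ps1, a pseudogene of Hmga2 on chromosome 1, had 1506 and 1138 normalized counts in the knockdown samples, against 1383, 1422 and 1049 in empty vector samples. The groups overlapped, and the pseudogene made 11.4% and 9.56% of the summed signal in knockdown samples and 10.2%, 10.9% and 8.86% in empty vector samples. With both summed, the log2 difference was −0.029 ± 0.078 (SE; limma adjusted p = 0.940). That sum was 13224 and 11908 in knockdown samples and 13612, 13016 and 11838 in empty vector samples. In each sample it lay below the sum of Hmga1 and Hmga1b, so the order of Hmga2 and Hmga1 turned with near copies summed. Divided by the value of 1 read, Hmga1, Hmga1b, Hmga2 and Hmga2-ps1 came out whole, within 0.02 reads, in 0 of 5 samples. The 3 Igf2bp genes came out whole in 5 of 5. So did 81.3% of 11904 genes with a mean of 10 to 15000, by a rule that also allowed for the rounding of the deposited values. The HMGA entries were off a whole number by more than that rounding in 5 of 5 samples. The step that made the HMGA values fractional is not given in the sources used here.

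Per kb of transcript, which lets genes be compared, the 5 spanned most of the range of the 12505 listed genes with a known length. Ranks, shares and medians here are among those genes, not among all genes of the genome. Hmga2 stood at 2951 ± 176 normalized counts per kb in knockdown and 3028 ± 189 in empty vector samples, rank 329 of 12505 genes. Hmga1 followed with 1227 ± 89.8 in knockdown and 1194 ± 173 in empty vector samples, at rank 906. Both HMGA genes stood above at least 92.8% of genes. The place of Hmga1 depends on how its reads were divided from those of Hmga1b, which was listed at 12827 ± 254 per kb in knockdown and 11835 ± 1068 in empty vector samples. Igf2bp2 was close to the middle of all genes, with 177 ± 20.3 per kb in knockdown and 199 ± 13.6 in empty vector samples, where the medians of all genes were 155 and 157. Igf2bp3 stood at 2.15 ± 0.93 in knockdown and 4.84 ± 1.72 in empty vector samples, above 5.24% of genes. Igf2bp1 was the lowest at 1.40 ± 0.39 in knockdown and 1.82 ± 0.20 in empty vector samples, above 1.36% of genes. Every neighbouring pair in this order was apart in all 5 samples except Igf2bp3 and Igf2bp1, whose ranges overlapped in knockdown samples. Length from the union of all exons put Igf2bp2 at 100.3 per kb over all samples in place of 190.4, and Hmga2 at 1686 in place of 2997, with the same order of the 5 genes.

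Igf2bp2 was therefore nearly the whole IGF2BP family in these cells. It made 98.4% and 97.6% of the summed level per kb of the 3 genes in knockdown samples and 96.1%, 96.7% and 97.6% in empty vector samples. Igf2bp3 made 0.765% and 1.69% in knockdown samples and 2.99%, 2.42% and 1.58% in empty vector samples, where knockdown sample 2 overlapped empty vector sample 3. Igf2bp1 made under 1% in each of the 5 samples, with 0.860% and 0.672% in knockdown samples and 0.917%, 0.903% and 0.821% in empty vector samples.

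**Figure D4:**
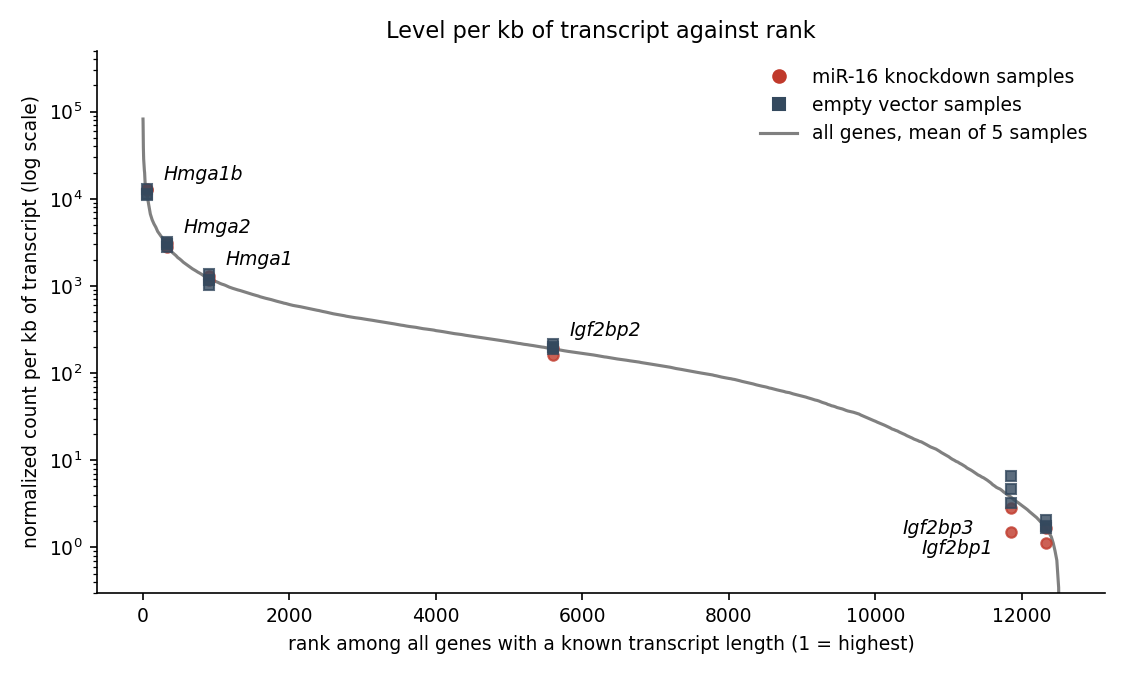
Normalized counts per kb of transcript (log scale) against rank among 12505 genes, with the 2 knockdown samples as red circles and the 3 empty vector samples as dark squares. Hmga2 and Hmga1 lie at ranks 329 and 906, Igf2bp2 near the middle, and Igf2bp3 and Igf2bp1 at the low end; Hmga1b is drawn for comparison.

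By the root mean square difference of centred log2 values over the 5 samples, among 9769 genes that averaged 100 or more, Hmga2 was closest to Nop14, Msn and Txnrd1 (0.015 each). Igf2bp2 was closest to Hectd2 and Mdm4 (0.014 each) and Fam13b (0.016). Hmga1 was closest to Gm30189 (0.020), Rnf40 (0.029) and Nupr1 (0.030). Igf2bp1 came nearest to Zfp809 (0.024), Cgnl1 (0.030) and Egfr (0.032). No gene followed Igf2bp3 closely, the nearest being Lratd2 (0.352), Zfp874b (0.388) and Asap3 (0.389), against a spread of 0.673 for Igf2bp3 itself. With 5 samples and so many genes, near matches are common, and these names are a description.

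Genes tied to the family by function were taken in 7 lists. No gene of any list passed an adjusted p of 0.05, and the lowest was 0.527 (limma). The Lin28 and let-7 axis had 25 genes tested of 29, and neither Lin28a nor Lin28b was among the genes listed. Of the log2 differences, 7 were above 0 and 18 below, with a median of −0.098 against 0.00073 over all tested genes. That median was −0.012 on flow cell B and −0.021 after the trend on transcript length was taken out. At an unadjusted p under 0.05, 1 gene was lower, where 5.3% of all genes were, and 0 were higher, against 2.83% of all genes. It was Dicer1, which cuts miRNA precursors and is itself a let-7 target, with 1721 and 1580.0 normalized counts in the knockdown samples, against 1931, 1797 and 2026 in empty vector samples. Both knockdown values lay below the empty vector range. The difference was −0.22 ± 0.086 (SE; limma adjusted p = 0.565), −0.12 on flow cell B and −0.067 with the length trend removed. Insr, the insulin receptor, differed by −0.26 and Cdc34, a ubiquitin-conjugating enzyme, by 0.18, both with overlapping groups. Within flow cell B they were at −0.11 and 0.027, and without knockdown sample 2 at −0.11 and 0.085. Igf1r, the receptor through which Igf2 signals, had 1028 and 868 normalized counts in the knockdown samples, against 1027, 1005 and 1009 in empty vector samples. The difference was −0.10 ± 0.096 (SE; limma adjusted p = 0.811). It was −0.090 on flow cell B, 0.065 with the length trend removed, and 0.019 without knockdown sample 2.

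Messenger RNAs known as IGF2BP clients, 18 tested of 18, split evenly, 9 above 0 and 9 below, with a median of −0.0027. At an unadjusted p under 0.05 there were 3 higher and 2 lower, where 2.83% of all genes were higher and 5.3% lower. H19, an imprinted long non-coding RNA that the IGF2BP proteins bind, had 236 and 389 normalized counts in the knockdown samples, against 175, 127 and 97.5 in empty vector samples. Both knockdown values lay above all 3 empty vector values. The log2 difference was 1.22 ± 0.26 (SE; limma adjusted p = 0.527). On flow cell B it was 1.25. Without knockdown sample 1 it was 1.58 with a limma adjusted p of 0.0206, and without knockdown sample 2 it was 0.86 with a limma adjusted p of 0.999. In both fits the single knockdown sample left is assumed to vary like those of the empty vector group. Igf2, the fetal growth factor that shares its imprinted region with H19 and gave the family its name, had 40.97 and 46.9 normalized counts in the knockdown samples, against 24.6, 27.6 and 11.8 in empty vector samples. Its groups also stood apart, with a difference of 1.09 ± 0.43 (SE; limma adjusted p = 0.565) that was 0.65 on flow cell B. Without empty vector sample 3 the Igf2 difference was 0.73, and its level was low, at 11.8 to 46.9 normalized counts.

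Ccng1, cyclin G1, had 4699 and 4391 normalized counts in the knockdown samples, against 5434, 5040.0 and 5812 in empty vector samples. Sp1, a transcription factor, had 2962 and 2625 in knockdown samples and 3159, 3171 and 3512 in empty vector samples. Both were lower without overlap, with log2 differences of −0.25 ± 0.080 for Ccng1 and −0.23 ± 0.084 for Sp1 (SE) and limma adjusted p of 0.535 and 0.565. On flow cell B the Ccng1 difference was −0.15 and the Sp1 difference −0.19, and Sp1 was at −0.11 with the length trend removed. The third gene with a higher value was Ccnd3, cyclin D3, at 0.21 ± 0.084 (SE), named after its value was seen. Myc had 1960.2 and 1898 normalized counts in the knockdown samples, against 2272, 2012 and 1904 in empty vector samples, overlapping groups with a difference of −0.093 ± 0.089 (SE; limma adjusted p = 0.816), which was −0.061 on flow cell B and −0.021 without empty vector sample 1.

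IGF2BP granule partners, 12 tested of 12, had 7 differences above 0 and 5 below, and no gene at an unadjusted p under 0.05. Their median was 0.010, against −0.0060 on flow cell B and 0.049 with the length trend removed. Pabpc1, the poly(A)-binding protein, differed by −0.11, Fmr1 by −0.082 and Hnrnpu by 0.065, each with overlapping groups. Pabpc1 was at −0.020 and Fmr1 at −0.069 on flow cell B. The sign of Fmr1 turned without knockdown sample 2 (0.025), and that of Hnrnpu without empty vector sample 3 (−0.021) and on flow cell B (−0.035). The m6A writers, erasers and other readers, 17 tested of 17, had 6 above 0 and 11 below, and no gene at an unadjusted p under 0.05. Their median was −0.028, against 0.0030 on flow cell B and −0.025 with the length trend removed. Hnrnpa2b1, a nuclear reader, was at 10486 and 10489.9 normalized counts in the knockdown samples, against 8830.3, 10372 and 8817 in empty vector samples. The groups did not overlap, but the difference of 0.17 ± 0.081 (SE) was 0.016 on flow cell B. Virma, a scaffold of the writer complex, differed by −0.17 and Ythdc2, a reader with a helicase, by −0.25, both without overlap. Within flow cell B they were at −0.12 and −0.13, and without the length trend at −0.077 and −0.14.

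Other KH domain proteins, 26 tested of 28, had 16 above 0 and 10 below, with a median of 0.021. Ankhd1 and Ankrd17, large ankyrin repeat proteins with a single KH domain, were lower without overlap at −0.32 ± 0.11 and −0.28 ± 0.10 (SE), with a limma adjusted p of 0.565 each. Without knockdown sample 1 they were at −0.52 and −0.47, with a limma adjusted p of 0.0452 each, and without knockdown sample 2 at −0.12 and −0.098, with a limma adjusted p of 0.999 each. Either way the lone knockdown sample is assumed to vary as the controls do. Within flow cell B they were at −0.20 and −0.19, and, without the length trend, at −0.19 and −0.13. Pcbp1, a poly(C)-binding protein, was higher without overlap at 0.18 ± 0.071 (SE; limma adjusted p = 0.565); on flow cell B it was at 0.11. At an unadjusted p under 0.05 these 3 were the only genes of the list, and 8.13% of all genes had such a p.

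The other high mobility group proteins, 11 tested of 12, had 10 differences above 0 and 1 below. Their median was 0.094, against 0.059 on flow cell B and 0.034 with the length trend removed, and no gene had an unadjusted p under 0.05. Hmgn1 and Hmgn3, which bind nucleosomes, were higher without overlap at 0.16 ± 0.075 and 0.22 ± 0.12 (SE), and on flow cell B at 0.059 and 0.14. Hmgxb3 was at −0.15 with overlapping groups, at −0.13 on flow cell B and at −0.033 without knockdown sample 2. Among 10 tested of 19 other oncofetal and fetal growth genes, 6 were above 0 and 4 below, with a median of 0.050. At an unadjusted p under 0.05, H19 and Igf2 were higher, as above, and Peg3 and Igf2r lower, against 2.83% higher and 5.3% lower over all genes. Peg3, an imprinted zinc finger gene, had 702 and 521 normalized counts in the knockdown samples, against 781, 727 and 965 in empty vector samples. The groups did not overlap, and the difference was −0.44 ± 0.15 (SE; limma adjusted p = 0.565), with −0.27 on flow cell B and −0.22 without knockdown sample 2. Igf2r, the receptor that clears Igf2, was at −0.23 ± 0.11 (SE) and was named after its value was seen. For Lin28b no result is given, as it was not among the 12615 genes listed.

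**Figure D5:**
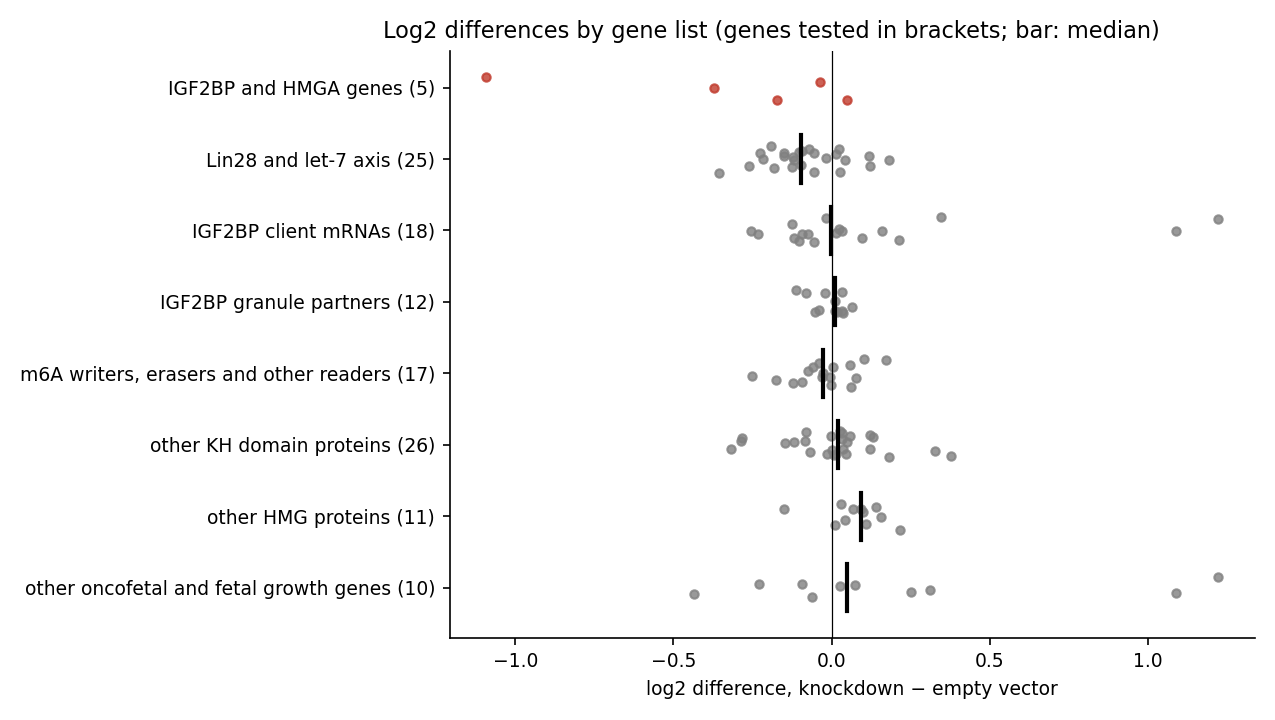
Log2 differences of knockdown minus empty vector samples for the 5 genes (red) and for the tested genes of 7 lists (grey), 1 point per gene, with black bars at list medians. List medians lie between −0.098 and 0.094, and the 2 points above 1 in the client and fetal growth lists are H19 and Igf2.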

How the data were processed

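The deposited gene table holds a signal per gene and sample: judged from its values, read counts divided by 1 size factor per sample. Of values up to 100 reads, 88.4% to 89.1% per sample came out whole within 0.02 reads, so raw counts could not be rebuilt and count models were left aside. The tools named in the submitters' processing notes are DESeq2 1.34.0, Partek and STAR, with build mm9. For library type, strand setting and annotation nothing is stated in the sources used here, and antisense or overlapping genes cannot be told apart. The authors' deposited comparison table gives a p-value, an FDR and a linear ratio per gene; these were copied.

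Values were taken as log2(value + 1), which understates folds of low genes. Genes with a mean of at least 10 were fitted with limma 3.58.1 in R 4.3.3 (variance trend, robust, two-sided, Benjamini-Hochberg over 11990 genes, threshold 0.05). The fit was checked on simulated counts with no flow cell effect and with large changes in genes above the level of Igf2bp1 and Igf2bp3. That check does not cover Igf2bp1, Igf2bp3 or small differences. Reads per sample were estimated as total signal over what 1 read is worth. Symbols matched GENCODE M21 for 99.1% of 12615 genes (12303 directly, 202 by an older name), which gave lengths and 3' UTRs. Positions in the table did not match GRCm38, so site coordinates come from GENCODE. The length trend was fitted in each sample, as the deviation from the gene's mean log2 value against log2 transcript length, and was subtracted. Genes of unknown length were left out of that setting.

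Members, lists and rules were chosen with earlier results of these data known. Named are the 5 members, the 3 genes with the smallest p of each list, and Igf2, H19, Lin28b, Myc, Igf1r and Sp1. The likeness rule took the 3 nearest genes of each member. The flow cell cannot be told apart from the lane and identifier series in the column names. Alternatives were other pseudocounts, filters, variance settings, normalization, left-out samples, the replicate block, the flow cell, transcript length, exon-union length and, added after seeing the data, near copies summed.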

Additional observations from a re-analysis of the deposited data

How the results depend on the processing

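None of the 5 genes passed under any of up to 16 other settings (limma, lowest adjusted p 0.319, for Igf2bp3 with a replicate block). Igf2bp1, Igf2bp2 and Igf2bp3 kept their direction in 14 of 14, 15 of 15 and 14 of 14 settings. Igf2bp1 and Igf2bp3 did not enter the filter at a mean of 50. Hmga1 kept its direction in 10 of 16 and Hmga2 in 14 of 16. These tallies do not count separate checks. Other filters and variance settings leave a log2 difference unchanged. The replicate block gave the same log2 difference as leaving out empty vector sample 3. The flow cell term gave the same one as flow cell B alone. Leaving out each sample in turn gave −0.64 to −0.11 for Igf2bp1, −0.29 to −0.056 for Igf2bp2, −1.50 to −0.68 for Igf2bp3, −0.049 to 0.16 for Hmga1 and −0.097 to 0.024 for Hmga2. Hmga1 turned to −0.049 without empty vector sample 3, −0.027 without knockdown sample 1, −0.17 with a flow cell term and on flow cell B alone, and −0.0055 once the transcript length trend was removed. Hmga2 turned to 0.006 without empty vector sample 1 and 0.024 without knockdown sample 2. Fmr1 turned to 0.025 without knockdown sample 2, Hnrnpu to −0.021 without empty vector sample 3 and −0.035 with the flow cell term and on flow cell B, and Igf1r to 0.019 without knockdown sample 2 and 0.065 with the length trend removed. Over the left-out samples, these ranged from −0.19 to 0.025 for Fmr1, −0.021 to 0.11 for Hnrnpu and −0.22 to 0.019 for Igf1r. The cause was not tested. The number of all genes that passed, 0 with all samples, was 0 to 107 with 1 sample left out, the highest without knockdown sample 1, and 28 without empty vector sample 2. Whether the replicate numbers pair the samples is not known. Correlations of deviations were 0.086 and 0.029 in the 2 pairs with the same number. The deviations of the 2 knockdown samples mirror each other, so these values cannot settle it. With a replicate block, which leaves 1 residual degree of freedom among samples and empty vector sample 3 alone in its block, 311 genes passed, Hmga1 was at −0.049 and Hnrnpu at −0.021. H19 then passed at 1.02, Ankhd1 at −0.30 and Ankrd17 at −0.27. Of 105 list medians recomputed, 24 moved beyond their spread and 18 took the other sign. With lengths from the union of exons the level per kb over all samples was 100.3 for Igf2bp2 (190.4), 2.0 for Igf2bp3 (3.76) and 1686 for Hmga2 (2997), with the value from the main transcript in brackets. A count test with edgeR was planned only for whole counts and was not run, because the values are not whole counts. Depth limits Igf2bp1 and Igf2bp3, with 6 to 27 reads per sample.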
